A study of Mus musculus with 9 samples.

Results

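The genes examined were the collagens, laminins and integrins of mouse prostate cancer cells, taken as every gene whose symbol has the form of a collagen chain (Col, a number, a, a number), a laminin chain (Lama, Lamb or Lamc and a number) or an integrin subunit (Itga or Itgb and its number or letter). The rule used no measured value and found 66 of the 15384 genes in the count table, namely 32 collagens, 10 laminins and 24 integrins. MyC-CaP cells are an androgen-responsive line from a mouse prostate tumor, and asporin (ASPN) is a small leucine-rich proteoglycan secreted by stromal fibroblasts. The RNA-Seq data consisted of 9 libraries of MyC-CaP cells, all starved of serum and calcium beforehand, 3 each at 0, 12 and 24 hours of recombinant mouse ASPN at 100 ng/mL. The comparisons ask how the mRNA of these genes differed after 12 and 24 hours with ASPN.

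The 0 hour libraries carry ASPN in their treatment label too, and they served as the starting point. No library without ASPN at 12 or 24 hours is among the 9, so ASPN and the hours in culture cannot be told apart, and the comparisons of 12 and of 24 hours with time 0 share the same 3 time 0 libraries. The replicates are wells of a single cell line, so p-values measure the spread between wells. Total counts were 41881191 to 52993821 per library, 3 counts of a gene corresponded to 0.0566 to 0.0716 CPM (counts scaled to the library total), and replicate libraries differed beyond sampling noise in all 9 same-time pairs (chi-square over its degrees of freedom, 3.41 to 17.5). Of the markers of prostate cancer epithelium, Hoxb13, Myc and Krt8 were above 1 CPM in the mean of every time, with Myc at 81.1 CPM at time 0 and 41.1 CPM at 24 hours, whereas Krt18 (0.234, 0.126 and 0.413 CPM at the 3 times) stayed under 1 CPM, Epcam had 0 to 1 counts and the E-cadherin gene Cdh1 had 0 to 10 counts in any library, so these defining epithelial markers were at or near 0. Of 10 fibroblast markers, 6 were in the table and 2 (Pdgfra and Postn) reached 1 CPM, and the list summed to 13.8 to 15.1 CPM in the time 0 libraries, to 13.3 to 13.6 CPM after 12 hours and to 11.2 to 11.9 CPM after 24 hours. The 6 leukocyte and 3 endothelial markers in the table all had means under 1 CPM at every time.

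Collagens, laminins and integrins form the matrix around cells and the receptors that hold on to it. Network-forming collagen IV and heterotrimeric laminins, each built of an alpha, a beta and a gamma chain, are the scaffold of the basement membrane on which prostate epithelium rests, whereas fibrillar collagens are mainly made by fibroblasts of the stroma. Integrins are paired receptors of an alpha and a beta subunit that bind these proteins outside the cell and the cytoskeleton inside it, and the alpha subunit largely sets which ligand is bound.

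Most of the matrix and receptor mRNA came from a few genes. Of the 66 genes, 32 had a mean of at least 1 CPM at any time, 15 had 3 counts or fewer in every library, and 41 had enough counts to be tested in at least 1 comparison. The 25 genes that were never tested were 16 collagens, 8 integrins and the laminin chain gene Lama4, and none of them exceeded 12 counts in any library. They included the fibrillar collagen gene Col1a1 (0 to 8 counts) and the leukocyte integrin genes Itgam, Itgax and Itgal. Per length, as CPM per kilobase of exon in the mean of time 0, the order of levels was Itga3 at 588, Itgb1 at 174, Itgb5 at 152, Lamb2 at 62.2, Lama5 at 51.5, Col4a5 at 24.9, Itga5 at 22.9, Lamc1 at 19.4, Col5a1 at 19.3, Itgav at 13.1 and Itgb3 at 13.0. Lamc1 and Col5a1, and likewise Itgav and Itgb3, were too close to be ordered. Thus the most abundant chain of each kind encoded an alpha subunit that binds laminin (Itga3), the beta subunit it pairs with (Itgb1), and laminin chains of the adult epithelial basement membrane (Lama5, Lamb2 and Lamc1). The sum over the collagens spanned 47.2 to 52.9 CPM per kilobase in the time 0 libraries, 52.0 to 52.4 in those of 12 hours and 57.7 to 61.7 in those of 24 hours. The sum over the laminins spanned 133 to 145 in the time 0 libraries, 142 to 145 in those of 12 hours and 171 to 177 in those of 24 hours, and that over the integrins was 959 to 987, 980 to 1010 and 964 to 1100. The collagen and laminin sums at 24 hours therefore lay above those of every earlier library with TMM factors, whereas those of the integrins overlapped with this scaling. With total counts, the collagen sums were 48.9 to 56.5, 54.0 to 54.7 and 51.9 to 56.4 and the laminin sums 142 to 155, 148 to 152 and 154 to 161 at the 3 times, so that the sums of 24 hours overlapped those of time 0 in both classes. By total counts the integrin sums of the 24 hour libraries (881 to 1000) lay below all those of time 0 (1020 to 1030) and of 12 hours (1020 to 1050).

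A gene was called when its Benjamini-Hochberg adjusted p over all tested genes was at most 0.05 and its fold change at least 1.5, and a gene past the adjusted p with a smaller fold change is described as past the adjusted p alone. At 12 hours, 1 of 37 tested genes was called, Itgb6, which rose, beside 1.6% of all 11410 tested genes (1.5% called higher and 0.0964% called lower). The adjusted p alone was met by 7 of the 37, beside 10.3% of all tested genes, and Itgb6 was no longer called by glmTreat, which tests against 1.5-fold itself. At 24 hours against time 0, 16 of 40 were called (40.0%), beside 28.8% of all 11444 tested genes. Of these 16, 13 rose (12% of all tested genes were called higher) and 3 fell (16.8% were called lower), and 25 of the 40 met the adjusted p alone, beside 70.9%. Between 12 and 24 hours, 15 of 41 were called, with 10 higher and 5 lower, beside 25.7% of all 11394 tested genes (10.4% higher and 15.3% lower), and 26 met the adjusted p alone, beside 71.3%. The libraries of the groups did not overlap for 12 of 37 genes at 12 hours, 28 of 40 at 24 hours against time 0 and 29 of 41 between 12 and 24 hours, where the shares of all tested genes were 27%, 73.9% and 73.9%. The median log2 fold change of the tested genes was 0.11 at 12 hours and 0.25 at 24 hours against time 0, beside 0 and -0.02 for all tested genes. Itga2, Itga7 and Itgb2 passed the filter on low counts only in the comparisons that include the 24 hour libraries, so their presence among the tested genes is not independent of a high level there.

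**Figure D1:**
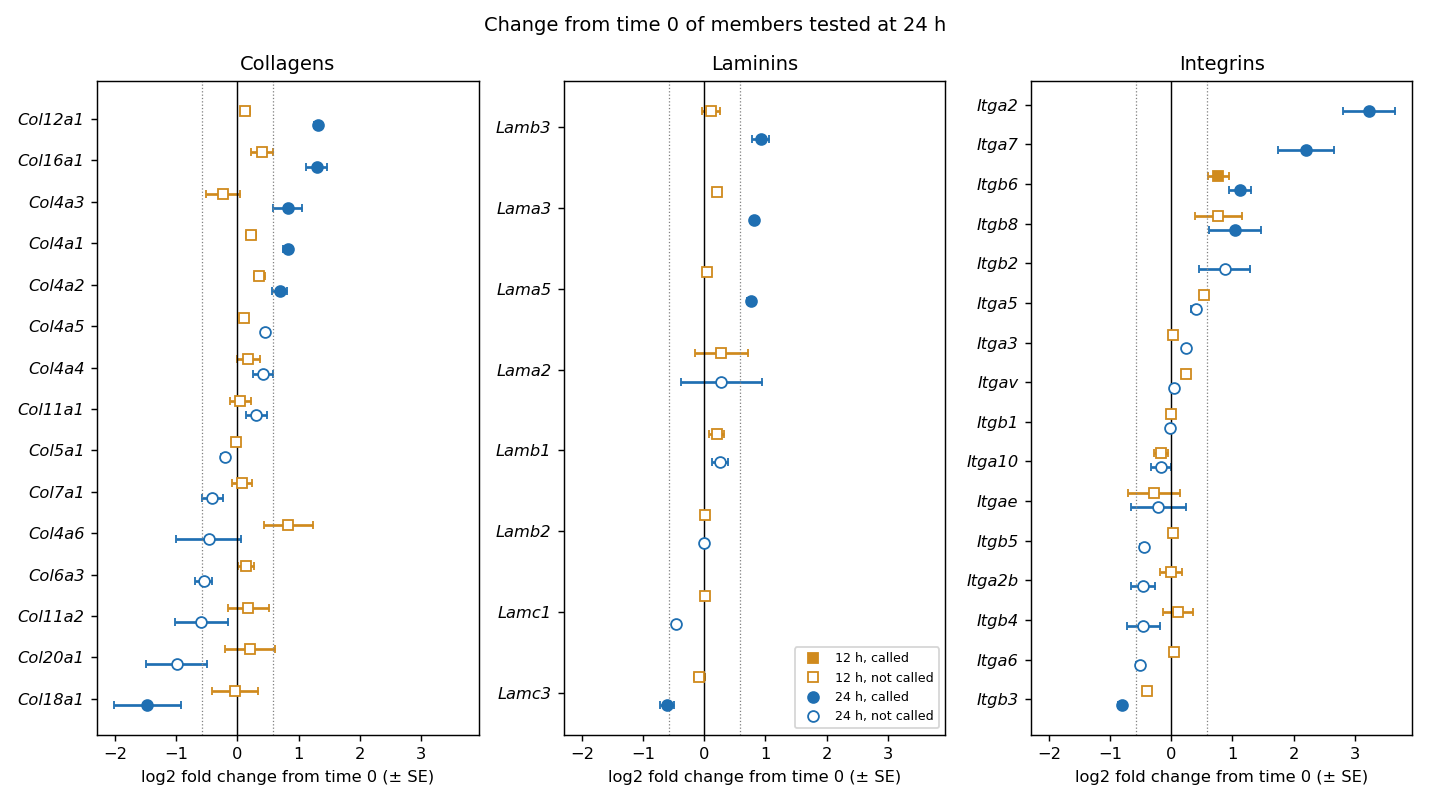
Log2 fold change from time 0 (x axis, with SE) of 39 collagens, laminins and integrins tested at 24 hours, with squares for 12 hours and circles for 24 hours. Filled symbols were called, dotted lines mark the 1.5-fold threshold, and at 12 hours Itgb6 is the only filled symbol, whereas 15 are filled at 24 hours.

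The direction at 24 hours depended on the scaling of the libraries. With total counts in place of TMM factors, the median of all genes moved to -0.24 on the log2 scale, 698 genes were called higher and 3008 lower against 1374 and 1924 with TMM, and 10 of the collagens, laminins and integrins were called higher and 11 lower. With offsets for transcript length and GC content, 1371 genes were called higher and 1625 lower in all, and 16 of the collagens, laminins and integrins higher and 1 lower. Tested collagens, laminins and integrins had a median exon length of 7122 bases and a GC content of 53.7%, against 4477 bases and 49.9% for all tested genes, and the part of length and GC content in their changes was otherwise not tested. Both total counts and the offsets added calls. With total counts, Col6a3 (-0.77), Col7a1 (-0.63), Col20a1 (-1.21), Lamc1 (-0.69), Itga2b (-0.68), Itga6 (-0.73), Itgb4 (-0.68) and Itgb5 (-0.67) were called lower at 24 hours against time 0. Between 12 and 24 hours, total counts added Col7a1 (-0.68), Lamc1 (-0.68), Lamc3 (-0.72), Itga2b (-0.66), Itga6 (-0.74), Itgb3 (-0.63), Itgb4 (-0.77) and Itgb5 (-0.68), all lower. With the offsets, Col4a4 (0.73), Col4a5 (0.69), Lamb1 (0.61) and Itga5 (0.63) were called higher at 24 hours against time 0, and Col4a2 (0.75), Col4a5 (0.59) and Itga7 (1.14) between 12 and 24 hours.

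Leaving out a library also added calls. At 12 hours, Col16a1 was called higher without time 0 replicate 2 (0.61) and Itga7, which had too few counts for a test with all 6 libraries, without ASPN 12 hour replicate 1 (1.92). At 24 hours against time 0, Col6a3 was called lower without time 0 replicate 3 (-0.64), ASPN 24 hour replicate 1 (-0.59) or ASPN 24 hour replicate 3 (-0.61), Col11a2 without time 0 replicate 1 (-0.97), Col20a1 without time 0 replicate 3 (-1.29) and Itga6 without ASPN 24 hour replicate 2 (-0.59). Between 12 and 24 hours, Itga6 was called lower without ASPN 24 hour replicate 2 (-0.61) and Itgb4 without ASPN 12 hour replicate 2 (-0.69). With glmTreat, which is stricter, Col4a2, Col4a3, Col18a1, Lamc3 and Itgb8 were no longer called at 24 hours against time 0, nor Col4a1, Col4a3, Col4a6, Col6a3, Col11a2, Col18a1, Col20a1, Lama3 and Itgb2 between 12 and 24 hours, and the counts of alternatives given below beside single genes leave this test out.

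**Figure D2:**
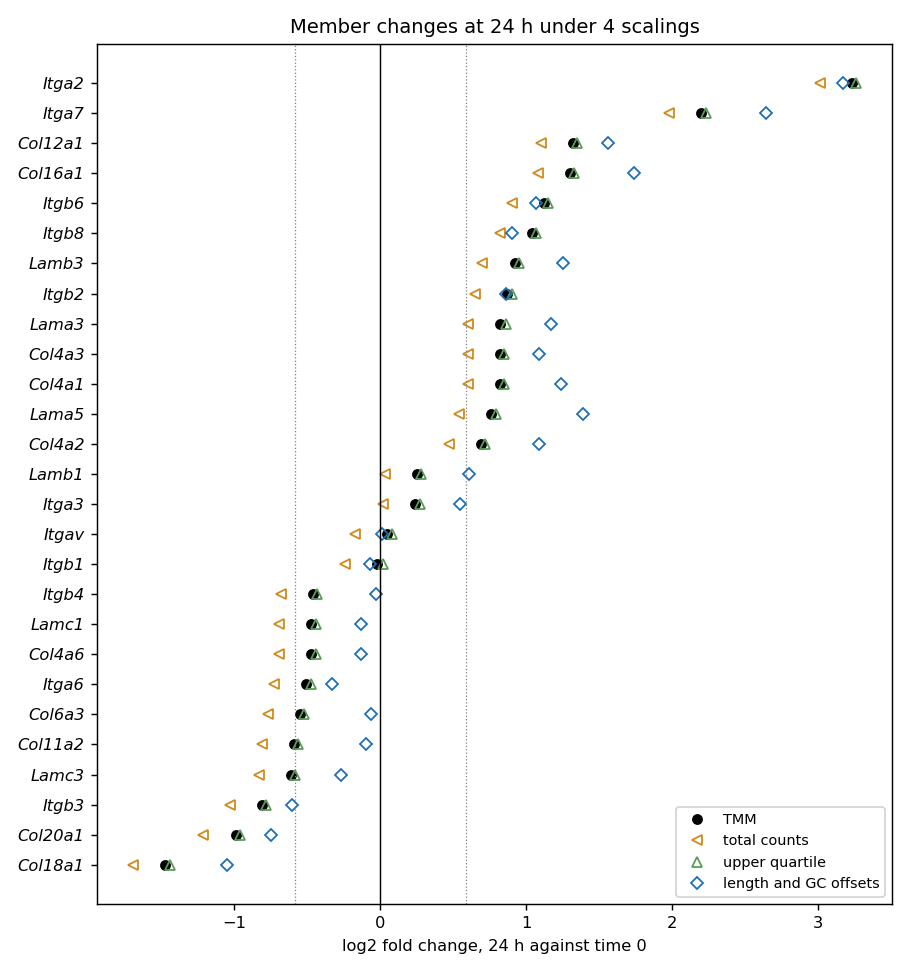
Log2 fold change at 24 hours against time 0 (x axis) of the named collagen, laminin and integrin genes under TMM factors, total counts, upper-quartile factors and offsets for transcript length and GC content. Total counts moved every gene toward lower values by about the shift of the median, whereas the offsets moved Lama5 from 0.76 to 1.39 and Lamc1 from -0.47 to -0.13.

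RefSeq promoter windows of GRCm38.p6 held 47 of the 66 genes, including 8 of the 13 that rose by 24 hours, and the 250 bases before each start were searched on both strands. The sequences of Lama5, the laminin gene with the highest level per length among those that rose, and of Itga2, the gene with the largest rise, are shown 5′ to 3′ on the minus strand, which both genes use, with matches to the GC box GGGCGG in capitals. The Lama5 window is at chr2:180225860-180226109 and the Itga2 window at chr13:114932101-114932350, and no annotated exon overlaps either.
Lama5: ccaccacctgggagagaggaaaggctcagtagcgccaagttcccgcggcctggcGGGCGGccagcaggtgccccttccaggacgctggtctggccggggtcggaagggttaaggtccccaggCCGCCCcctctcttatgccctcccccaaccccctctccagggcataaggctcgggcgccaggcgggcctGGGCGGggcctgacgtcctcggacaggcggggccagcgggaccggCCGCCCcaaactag
Itga2: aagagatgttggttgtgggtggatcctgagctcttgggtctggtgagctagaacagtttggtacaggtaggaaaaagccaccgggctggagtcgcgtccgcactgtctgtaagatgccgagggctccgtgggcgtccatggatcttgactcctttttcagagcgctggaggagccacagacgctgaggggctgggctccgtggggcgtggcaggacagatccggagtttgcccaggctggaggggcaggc
The Lama5 window held 4 GC boxes, whereas the Itga2 window held no match to any motif searched. GC boxes were in the windows of 25 of the 47 genes and of 3 of the 8 that rose, beside 32.7% of all 32851 windows. The CCAAT box (CCAAT) was in 14 of 47 and in 4 of 8, beside 33.8% of all windows, and the TEAD motif (GGAATG) was in 6 of 47 and 1 of 8, beside 12.6%. The AP-1 motif (TGANTCA) was in 2 of 47 and 0 of 8, beside 6.7%, the kB motif of NF-kB was in 1 of 47 and 0 of 8, beside 1.4%, the TATA box (TATAAA) was in 3 of 47 and 0 of 8, beside 12.4%, and the E-box (CACGTG) was in 0 of 47, beside 6.0%. A gene with more than 1 window was counted once if any of its windows held the motif. The percentages are of single windows, so they are not in the same unit as the counts of genes. These counts describe letters in these windows.

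Among the collagens, 3 of the 6 chains of collagen IV and 2 of 3 tested fibril-associated collagens rose by 24 hours against time 0, whereas none of the 3 tested fibrillar collagens was called in this comparison. Of 15 tested collagens, 5 rose, 1 fell and 9 were not called (40.0% called, beside 28.8% of all tested genes, of which 12.0% were called higher and 16.8% lower), and none of the 15 was called at 12 hours by edgeR, where 4 had an unadjusted p under 0.05, as had 21.4% of all tested genes. Col12a1 encodes a fibril-associated collagen that bridges collagen fibrils and the surrounding matrix (chromosome 9, 79598991 to 79718831 on GRCm38). Its levels were 11.5, 11.2 and 12.1 CPM at time 0, 13.2, 12.2 and 12.7 CPM at 12 hours and 29.5, 28.5 and 28.7 CPM at 24 hours. All 3 libraries of 24 hours thus lay far above the 6 earlier ones, and the log2 fold change was 1.32 against time 0 (SE 0.06, adjusted p = 1.1e-09) and 1.21 against 12 hours (SE 0.06, adjusted p = 1.1e-09). Col16a1, another fibril-associated collagen gene, was at 1.60, 2.29 and 1.56 CPM at time 0, 2.49, 2.56 and 2.15 CPM at 12 hours and 4.06, 4.78 and 4.52 CPM at 24 hours, a rise of 1.30 on the log2 scale against time 0 (SE 0.17, adjusted p = 1.2e-05). The 12 hour libraries of Col16a1 overlapped those of time 0. Col20a1, the remaining tested gene of the fibril-associated group, had 5 to 26 counts in any library and was called lower between 12 and 24 hours (log2 fold change -1.17, SE 0.46, adjusted p = 0.035), a call that was lost in 4 of 10 alternatives and when any library but ASPN 12 hour replicate 2 was left out.

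The 6 chains of collagen IV are encoded by 3 pairs of genes that lie head to head, and all 6 were tested. Col4a1 and Col4a2, which encode the chains of the collagen IV found in nearly all basement membranes, start 21 bases apart on chromosome 8 on opposite strands, and 22 of their exon bases overlap. Col4a1 was at 12.1, 12.1 and 14.5 CPM at time 0, 15.3, 14.9 and 14.7 CPM at 12 hours and 21.9, 24.2 and 22.2 CPM at 24 hours. Col4a2 was at 7.52, 7.01 and 8.57 CPM at time 0, 9.56, 9.81 and 10.2 CPM at 12 hours and 10.7, 14.4 and 12.0 CPM at 24 hours. For both genes every library of 12 hours lay above those of time 0 and every library of 24 hours above those of 12 hours. Col4a1 rose by 24 hours against time 0 (log2 fold change 0.82, SE 0.08, adjusted p = 1.1e-06), as did Col4a2 (0.69, SE 0.12, adjusted p = 1.5e-04). For Col4a2 the step to 12 hours was 0.36 (adjusted p = 0.017) and the step from 12 to 24 hours 0.35 (adjusted p = 0.0071), both past the adjusted p alone. The call of Col4a2 at 24 hours against time 0 was lost with total counts (0.47) and without ASPN 24 hour replicate 2 (0.56), and that of Col4a1 between 12 and 24 hours (0.63) with total counts (0.41) and without ASPN 24 hour replicate 2 (0.58).

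Col4a3, a chain best known from the kidney glomerulus and the lung, was at 0.706, 0.686 and 0.918 CPM at time 0, 0.503, 0.624 and 0.846 CPM at 12 hours and 1.34, 1.35 and 1.39 CPM at 24 hours. At 24 hours it rose by 0.82 on the log2 scale against time 0 (SE 0.23, adjusted p = 0.0065) and by 1.07 against 12 hours (SE 0.25, adjusted p = 0.0019). The 12 hour value of Col4a3 against time 0 (-0.23, adjusted p = 0.7) did not pass. An antisense transcript overlaps 5.6% of its exon bases, and the strand setting of the counting is not given in the sources used here. Its head-to-head partner Col4a4, whose start lies 72 bases away, had a log2 fold change of 0.42 at 24 hours against time 0 (adjusted p = 0.03), past the adjusted p alone. Col4a5, the most abundant collagen, was at 162, 175 and 165 CPM at time 0, 180, 179 and 182 CPM at 12 hours and 246, 218 and 219 CPM at 24 hours, with a log2 fold change of 0.45 at 24 hours against time 0 (SE 0.05, adjusted p = 4.6e-06) that stayed under 1.5-fold. Its partner Col4a6, with a start 1309 bases away, had 4 to 24 counts in any library and was called lower between 12 and 24 hours (-1.28, SE 0.48, adjusted p = 0.03), a call lost in 4 of 10 alternatives and without ASPN 12 hour replicate 2 or 3 or ASPN 24 hour replicate 1 or 2. Within each pair, then, both genes had positive log2 fold changes at 24 hours against time 0 for Col4a1 with Col4a2 and for Col4a3 with Col4a4, whereas Col4a6 was at -0.47 (adjusted p = 0.43) beside Col4a5 at 0.45. Per length, Col4a5 made up 49.3% to 51.1% of all collagen mRNA at time 0 and 54.5% to 59.4% at 24 hours.

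The other collagens were lower or were not called. Col5a1, which encodes a regulatory chain of collagen fibrils and was the second most abundant collagen, was at 152, 178 and 163 CPM at time 0 and 138, 150 and 138 CPM at 24 hours, a log2 fold change of -0.20 with an SE of 0.06 (adjusted p = 0.0059) past the adjusted p alone. Its share of collagen mRNA per length went from 38.0% to 39.6% at time 0 to 26.5% to 29.7% at 24 hours, with no overlap. Col6a3, a chain of the microfibrillar collagen VI, was at 5.05, 5.68 and 4.28 CPM at time 0, 5.56, 6.33 and 4.57 CPM at 12 hours and 3.59, 2.94 and 3.67 CPM at 24 hours. It was called lower between 12 and 24 hours (-0.67, SE 0.14, adjusted p = 9.1e-04), and this call was lost with offsets for length and GC content (-0.20) and without ASPN 12 hour replicate 2 or ASPN 24 hour replicate 2. Col11a2, a chain of cartilage fibrils, spread from 41 to 197 counts within time 0 alone and was called lower between 12 and 24 hours (-0.74, SE 0.24, adjusted p = 0.012), a call lost with the offsets (-0.27), in the joint fit of the 9 libraries and without ASPN 12 hour replicate 1 or ASPN 24 hour replicate 3. Col18a1, the basement membrane collagen from which endostatin is cut, had 15, 14 and 36 counts at time 0, 18, 23 and 16 at 12 hours and 2, 11 and 8 at 24 hours. It fell by 1.47 on the log2 scale at 24 hours against time 0 (SE 0.54, adjusted p = 0.026) and by 1.42 against 12 hours (SE 0.48, adjusted p = 0.019). The call against time 0 was lost with the offsets and without time 0 replicate 3, ASPN 24 hour replicate 1 or ASPN 24 hour replicate 3, and that against 12 hours with the offsets and without ASPN 12 hour replicate 2 or ASPN 24 hour replicate 1. Col7a1, the collagen of anchoring fibrils, had log2 fold changes of -0.41 against time 0 and -0.46 between 12 and 24 hours (adjusted p = 0.021), the latter past the adjusted p alone. Col11a1 (0.31 at 24 hours against time 0, adjusted p = 0.12) and Col8a1, which was tested between 12 and 24 hours alone (-0.26, adjusted p = 0.74), did not pass. The 16 collagens with too few counts for a test were Col1a1, Col2a1, Col5a3, Col6a1, Col6a2, Col6a6, Col8a2, Col9a2, Col9a3, Col10a1, Col14a1, Col17a1, Col23a1, Col24a1, Col25a1 and Col27a1.

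**Figure D3:**
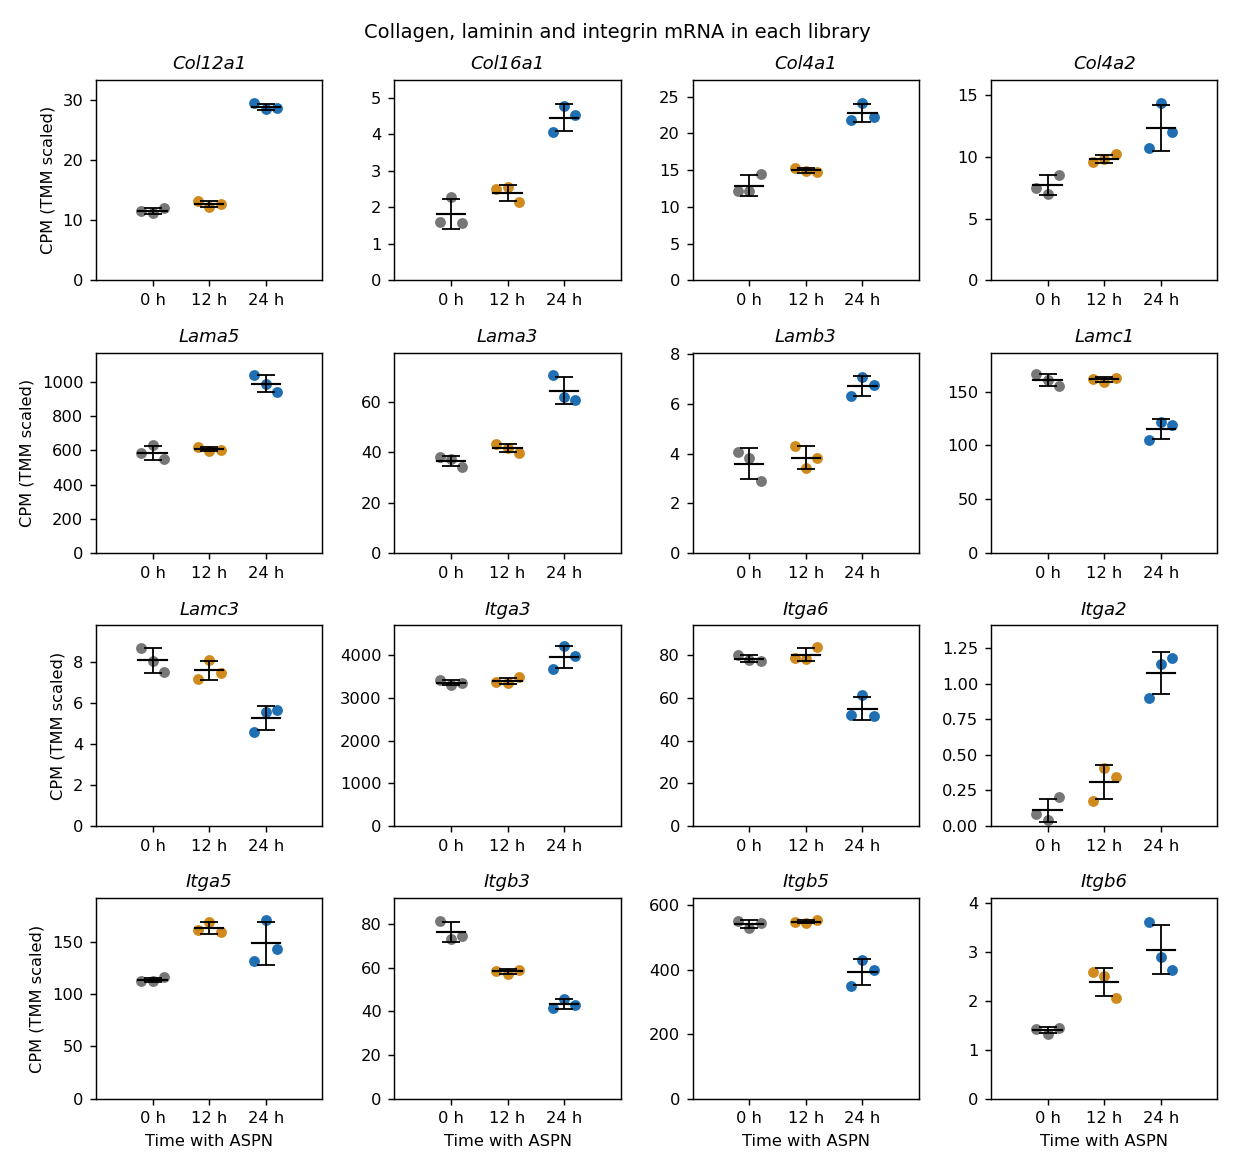
Levels in CPM, scaled by TMM factors (y axis, from 0), of 16 collagen, laminin and integrin genes in each of the 9 libraries (points) by time with ASPN, with the mean as a bar and the SD over 3 libraries. Col12a1 stands at 28.5 to 29.5 CPM in the 24 hour libraries and at 11.2 to 13.2 CPM in all earlier ones, whereas Itgb3 is lower at each later time.

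Of the laminin chains named here, Lama5, Lama3 and Lamb3 rose by 24 hours, Lamc3 fell, and Lamc1 was lower past the adjusted p alone. Of all tested genes, 12% were called higher and 16.8% lower at 24 hours against time 0. None of the 9 tested laminins was called at 12 hours by edgeR, where 2 had an unadjusted p under 0.05 (21.4% of all tested genes had). Lama5, the alpha chain of the main laminins of adult epithelium, was at 584, 629 and 547 CPM at time 0, 622, 599 and 600 CPM at 12 hours and 1040, 988 and 942 CPM at 24 hours. All 24 hour libraries lay above all others, and the log2 fold change was 0.76 against time 0 (SE 0.06, adjusted p = 4.7e-08) and 0.73 against 12 hours (SE 0.04, adjusted p = 4.1e-09). With total counts the value against time 0 was 0.54, past the adjusted p alone, and the call against 12 hours was lost as well. Lama5 lies on chromosome 2 at 180176373 to 180225859 of GRCm38, on the minus strand.

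Lama3 and Lamb3 encode chains of the laminin that anchors epithelium through hemidesmosomes. Lama3 was at 38.0, 37.3 and 34.2 CPM at time 0, 43.2, 41.9 and 39.9 CPM at 12 hours and 70.6, 61.9 and 60.8 CPM at 24 hours. Lamb3 was at 4.05, 3.82 and 2.88 CPM at time 0, 4.31, 3.40 and 3.80 CPM at 12 hours and 6.30, 7.08 and 6.77 CPM at 24 hours. For both genes the 24 hour libraries lay above all 6 earlier libraries, whereas for Lamb3 those of time 0 and 12 hours overlapped. The log2 fold changes at 24 hours against time 0 were close to each other, at 0.82 for Lama3 (SE 0.06, adjusted p = 9.3e-08) and 0.92 for Lamb3 (SE 0.14, adjusted p = 4.0e-05). Both calls against time 0 held with total counts (0.60 and 0.70) and with the offsets (1.17 and 1.25). At 12 hours the value of Lama3 was 0.20 (adjusted p = 0.015), past the adjusted p alone, and that of Lamb3 (0.11) did not pass. Against 12 hours the values at 24 hours were 0.65 for Lama3 and 0.83 for Lamb3, both called, and that of Lama3 was no longer called with total counts or without ASPN 24 hour replicate 1. An antisense transcript overlaps 1.8% of the exon bases of Lama3.

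The other laminin chains named here were lower or were not called. Lamc1, the gamma chain of most laminins, was at 166, 161 and 155 CPM at time 0, 162, 159 and 163 CPM at 12 hours and 105, 122 and 119 CPM at 24 hours, a log2 fold change of -0.47 against time 0 (SE 0.05, adjusted p = 4.6e-06) past the adjusted p alone, which was -0.69 with total counts and -0.13 with the offsets. Lamc3, a gamma chain of lower level, was at 8.70, 8.04 and 7.51 CPM at time 0 and 4.57, 5.59 and 5.66 CPM at 24 hours and fell by 0.61 on the log2 scale (SE 0.11, adjusted p = 3.2e-04), a call lost with the offsets (-0.27), with upper-quartile factors (-0.58) and without time 0 replicate 1 or ASPN 24 hour replicate 1. An antisense transcript overlaps 6.3% of its exon bases. The beta chain genes Lamb2 (log2 fold change -0.01, SE 0.04) and Lamb1 (0.25, SE 0.13, adjusted p = 0.11) did not pass the test at 24 hours against time 0. Lamb1 was at 7.16, 7.12 and 5.49 CPM at time 0, 7.11, 6.74 and 8.82 CPM at 12 hours and 6.47, 8.51 and 8.36 CPM at 24 hours, with overlap between all times, and was called higher with the offsets (0.61). Lama2, a laminin chain of muscle and nerve, had 1 to 22 counts in any library and was not called.

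The makeup of the laminin mRNA within a library was also compared. The Lama5 to Lamc1 ratio per length was 2.55, 2.84 and 2.56 at time 0, 2.79, 2.73 and 2.67 at 12 hours and 7.17, 5.86 and 5.74 at 24 hours, so that the 24 hour libraries lay above all others, whereas those of time 0 and 12 hours overlapped. This ratio is taken within each library and does not depend on the scaling of libraries, although length and GC content could still affect it, and with 3 libraries against 3 an exact two-sided permutation test cannot give a p below 0.1. The share of Lamb3 among the beta chains was 0.719% to 0.938% at time 0 and 1.56% to 1.66% at 24 hours, and Lamb2 held 97.0% to 98.4% throughout. Among the alpha chains, Lama5 held 93.1% to 94.1% in all 9 libraries.

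**Figure D4:**
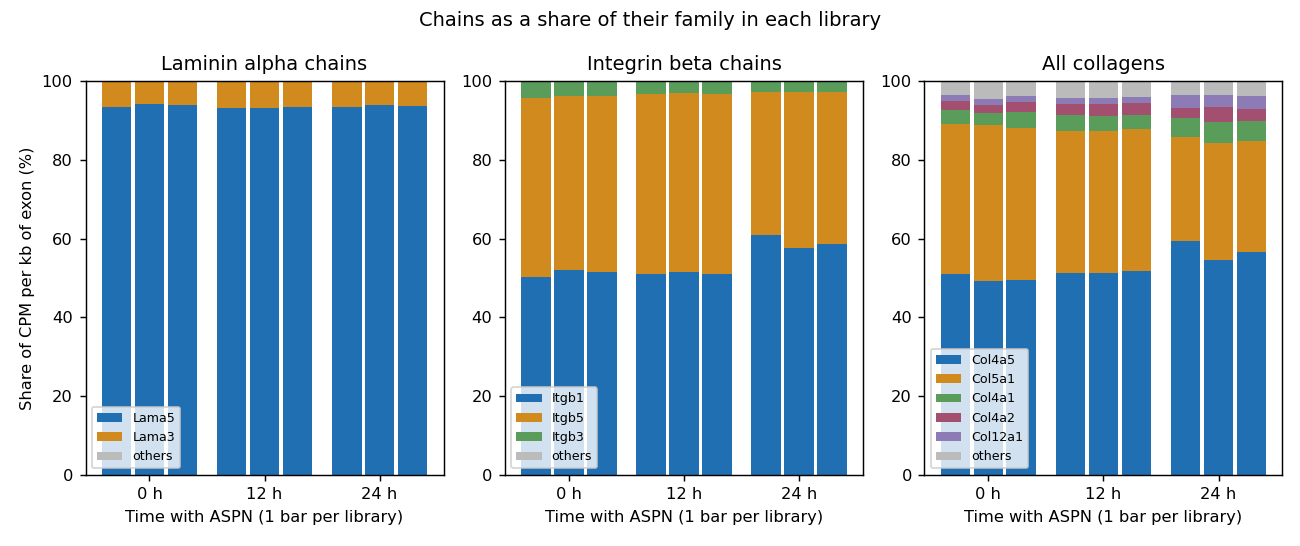
Chains as a percentage of their family, from CPM per kilobase of exon, in each of the 9 libraries (bars) for laminin alpha chains, integrin beta chains and all collagens. Itgb1 takes 50.3% to 52.0% of the beta subunits at time 0 and 57.7% to 61.0% at 24 hours, whereas Lama5 holds 93.1% to 94.1% of the alpha chains in all libraries.

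Among the integrins, Itga2, Itga7, Itgb6 and Itgb8, all of low level, rose and Itgb3 fell at 24 hours against time 0. Past the adjusted p alone, Itga3 and Itga5 were higher and Itgb5 and Itga6 lower. At 24 hours against time 0, 5 of 16 tested integrins were thus called (31.2%), a share near the 28.8% of all tested genes, and the other low-level integrins tested (Itga10, Itga2b, Itgae, Itgb2 and Itgb4) did not pass. Itga2 and Itga7 had enough counts for a test only in comparisons with the 24 hour libraries, where they were high. Itga2, the alpha subunit of a collagen receptor of epithelium and platelets (chromosome 13, 114833081 to 114932100 on GRCm38, minus strand), had 4, 2 and 11 counts at time 0, 8, 19 and 15 at 12 hours and 37, 55 and 56 at 24 hours. In CPM these were 0.0831, 0.0429 and 0.202 at time 0, 0.175, 0.409 and 0.343 at 12 hours and 0.904, 1.14 and 1.18 at 24 hours. The 24 hour libraries thus lay above every other library, whereas those of time 0 and 12 hours overlapped. The log2 fold change was 3.23 against time 0 (SE 0.43, adjusted p = 1.4e-05) and 1.82 against 12 hours (SE 0.33, adjusted p = 2.7e-04), and at this few counts its size is imprecise, from 2.88 to 4.05 when a library was left out. Itga10, the other collagen-binding alpha subunit tested, had a log2 fold change of -0.17 (adjusted p = 0.37), and 33.5% of its exon bases are shared with another gene model on the same strand. Itga7, the laminin-binding alpha subunit of muscle, had 5, 8 and 6 counts at time 0, 6, 20 and 24 at 12 hours and 35, 26 and 19 at 24 hours, and rose by 2.20 on the log2 scale at 24 hours against time 0 (SE 0.46, adjusted p = 8e-04). Its 24 hour libraries overlapped those of 12 hours.

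The abundant laminin-binding subunits Itga3 and Itga6 had values of opposite sign at 24 hours. Itga3, the most abundant gene of all 66 per length, was at 3430, 3300 and 3350 CPM at time 0, 3370, 3340 and 3480 CPM at 12 hours and 3680, 4210 and 3990 CPM at 24 hours. Its log2 fold change of 0.24 at 24 hours against time 0 (SE 0.05, adjusted p = 7.6e-04) passed the adjusted p alone, was 0.02 with total counts and 0.55 with the offsets. Itga6, whose protein binds the same laminins and also pairs with Itgb4 in hemidesmosomes, was at 80.3, 77.9 and 77.1 CPM at time 0, 78.6, 78.2 and 83.7 CPM at 12 hours and 52.2, 61.3 and 51.5 CPM at 24 hours, a log2 fold change of -0.51 with an SE of 0.06 (adjusted p = 6.5e-06) past the adjusted p alone. The value of Itga6 was -0.73 with total counts, which called it lower, and -0.33 with the offsets. The Itga6 to Itga3 ratio per length spanned 0.0146 to 0.0149 in the time 0 libraries, 0.0148 to 0.0152 in those of 12 hours and 0.00817 to 0.00922 in those of 24 hours. Itgb4 itself was at 1.10, 1.63 and 0.863 CPM at time 0, 1.38, 1.03 and 1.44 CPM at 12 hours and 0.855, 0.870 and 0.865 CPM at 24 hours (log2 fold change -0.46, SE 0.27, adjusted p = 0.15). The value of Itgb4 was -0.68 with total counts, which called it lower, and -0.03 with the offsets, so that its size depended on the scaling at this low level. A noncoding transcript on the opposite strand overlaps 7.7% of the Itgb4 exon bases.

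The integrin subunits of fibronectin and vitronectin receptors, which bind the RGD motif, had different time courses. Itga5, the alpha subunit of the main fibronectin receptor, was at 112, 112 and 116 CPM at time 0, 161, 169 and 159 CPM at 12 hours and 131, 171 and 143 CPM at 24 hours. The 12 hour libraries all lay above time 0 (log2 fold change 0.53, SE 0.03, adjusted p = 8.9e-09), just under the 1.5-fold threshold, and the 24 hour value against time 0 was 0.40 (SE 0.07, adjusted p = 3.1e-04). Itgav, the alpha subunit that pairs with several beta subunits, was at 150, 135 and 139 CPM at time 0, 159, 167 and 171 CPM at 12 hours and 145, 147 and 145 CPM at 24 hours. It was higher at 12 hours (0.24, SE 0.04, adjusted p = 9.2e-04) and lower again from 12 to 24 hours (-0.17, SE 0.04, adjusted p = 0.0014), both past the adjusted p alone, and a noncoding transcript on the opposite strand overlaps 5.9% of its exon bases. Itga2b, the platelet alpha subunit, had a log2 fold change of -0.46 at 24 hours against time 0 (adjusted p = 0.059).

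The beta subunits that pair with Itgav differed from each other. Itgb3 was at 81.5, 73.2 and 74.6 CPM at time 0, 58.7, 57.2 and 59.1 CPM at 12 hours and 41.4, 45.8 and 42.8 CPM at 24 hours, so that no library of any time overlapped that of another. Its log2 fold change was -0.39 at 12 hours (SE 0.04, adjusted p = 6.8e-06), past the adjusted p alone, and at 24 hours it fell by 0.81 against time 0 (SE 0.06, adjusted p = 2.4e-08), a call that held in 11 of 11 other fits and without any 1 library. Itgb5 was at 550, 527 and 543 CPM at time 0, 547, 543 and 554 CPM at 12 hours and 349, 430 and 400 CPM at 24 hours, a log2 fold change of -0.45 against time 0 (SE 0.06, adjusted p = 1.9e-05) past the adjusted p alone. Itgb6, the beta subunit of epithelial cells that activates latent TGF-beta together with Itgav, was at 1.43, 1.33 and 1.45 CPM at time 0, 2.60, 2.52 and 2.06 CPM at 12 hours and 3.62, 2.90 and 2.64 CPM at 24 hours. The 3 times did not overlap, and Itgb6 rose by 0.77 on the log2 scale at 12 hours (SE 0.17, adjusted p = 0.0055) and by 1.12 at 24 hours against time 0 (SE 0.18, adjusted p = 8.0e-05). Itgb8, which also activates latent TGF-beta with Itgav, had 11, 18 and 14 counts at time 0, 28, 26 and 13 at 12 hours and 13, 26 and 43 at 24 hours. Its libraries overlapped, and its call at 24 hours against time 0 (1.04, SE 0.43, adjusted p = 0.045) was lost in 6 of 11 alternatives and without time 0 replicate 1 or 3 or ASPN 24 hour replicate 2 or 3.

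Itgb1, the beta subunit shared by most integrin receptors, was at 697, 713 and 716 CPM at time 0, 696, 703 and 708 CPM at 12 hours and 679, 723 and 692 CPM at 24 hours, with overlap between all times, and its log2 fold change at 24 hours against time 0 was -0.02 (SE 0.04, adjusted p = 0.73) and -0.24 with total counts. Its share of the beta subunits per length was 50.3% to 52.0% at time 0 and 57.7% to 61.0% at 24 hours, and that of Itgb5 was 44.2% to 45.5% and 36.1% to 39.5%. The share of Itgb3 was 3.69% to 4.07% in the time 0 libraries, 2.89% to 2.97% after 12 hours and 2.50% to 2.58% after 24 hours. Itgb2, the beta subunit of leukocyte integrins, had 6 to 24 counts in any library and was called higher between 12 and 24 hours (1.38, SE 0.46, adjusted p = 0.016), a call lost without a filter on low counts and without ASPN 12 hour replicate 1 or 3 or ASPN 24 hour replicate 2, while its alpha partners Itgal, Itgam, Itgax and Itgad had too few counts to be tested, as had Itga8, Itga9, Itga11 and Itgb7. Itgae, an alpha subunit of lymphocytes in epithelium, was not called in any comparison (log2 fold change of -0.21 at 24 hours against time 0, adjusted p = 0.69).

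By the course over time, 37 genes were tested in both steps, of which 19 passed the adjusted p between 12 and 24 hours alone (51.4%, beside 63.0% of all 11311 genes tested in both steps), 2 between time 0 and 12 hours alone (Itga5 and Itgb6), 4 in both steps in the same direction (Col4a2, Col4a5, Lama3 and Itgb3), 1 in both steps in opposite directions (Itgav) and 11 in neither step. Of all genes tested in both steps, 1.87% passed in the first step alone, 5.75% in both in the same direction, 2.79% in both in opposite directions and 26.6% in neither. The other 4 were tested between 12 and 24 hours only, where Itga2 and Itgb2 passed and Itga7 and Col8a1 did not. Counting calls, 9 genes were higher at 24 hours against both earlier times and 1 (Col18a1) was lower against both, of 40 tested in both comparisons (22.5% and 2.5%, beside 9.12% and 13.9% of all 11333 such genes). These comparisons share the 24 hour libraries. The 12 hour libraries enter both steps, so that the steps are not independent of each other.

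Genes that process collagens were called about as often as all tested genes at 24 hours against time 0, 6 of 21 (28.6%) beside 28.8%. Of these 21 tested genes of collagen processing, none was called by edgeR at 12 hours, where 10 had an unadjusted p under 0.05 (all tested genes, 21.4%), and at 24 hours against time 0, 2 rose and 4 fell (12.0% and 16.8% of all tested genes). P4ha1, which encodes a prolyl 4-hydroxylase subunit that stabilizes the collagen helix, rose by 0.59 on the log2 scale (SE 0.04, adjusted p = 3.1e-08), as did Ppib, a prolyl isomerase of the endoplasmic reticulum (0.59, SE 0.04, adjusted p = 4.1e-08), both just above the 1.5-fold threshold. P3h1 (-0.72, SE 0.05), which encodes a prolyl 3-hydroxylase and works in a complex with Ppib, fell, as did Mia3 (-0.66, SE 0.04), which loads collagen for export, P3h4 (-0.62, SE 0.06) and the lysyl oxidase family gene Loxl3 (-0.61, SE 0.05). Between 12 and 24 hours, Ppib was the only called gene of the 21 tested (0.59, SE 0.03, adjusted p = 4.9e-09), 4.76% beside 25.7% of all tested genes.

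Of 20 tested genes for other matrix proteins and matrix receptors, 6 rose and 6 fell at 24 hours against time 0, 60.0% in all beside 28.8% of all tested genes. Sdc4, a heparan sulfate proteoglycan that works beside integrins in adhesion to fibronectin, was the only one called at 12 hours, with a mean of 798 CPM at time 0 and 1650 CPM at 12 hours (log2 fold change 1.05, SE 0.04, adjusted p = 1.8e-11) and 1400 CPM at 24 hours (0.81 against time 0, SE 0.06, adjusted p = 8.6e-08). Ddr2, a collagen receptor kinase, had the highest log2 fold change at 24 hours against time 0, at 1.58 (SE 0.18, adjusted p = 4.3e-06) from a mean of 1.08 CPM, and Cd44, a receptor for hyaluronan, rose by 1.23 (SE 0.06, adjusted p = 1.7e-09). Fn1, the fibronectin gene and a ligand of the receptor with Itga5, had a mean of 5630 CPM at time 0 and 8490 CPM at 24 hours and rose by 0.60 (SE 0.05, adjusted p = 1.3e-07). This value lies just above the 1.5-fold threshold, and the Fn1 value between 12 and 24 hours (0.58) passed the adjusted p alone. The lowest values were those of Vtn, the vitronectin gene (-1.70, SE 0.38, adjusted p = 0.0014), which had a mean under 1 CPM, of the basement membrane glycoprotein gene Smoc1 (-0.94, SE 0.05, adjusted p = 1.8e-09) and of the integrin ligand gene Npnt (-0.78, SE 0.10, adjusted p = 9.6e-06). Dag1, which encodes dystroglycan, a laminin receptor that is no integrin, fell by 0.64 (SE 0.05, adjusted p = 1.7e-07).

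Of 30 tested genes of the complex that couples integrins to actin, none was called by edgeR at 12 hours, where 15 had an unadjusted p under 0.05 (all tested genes, 21.4%), and 6 rose and 5 fell at 24 hours against time 0, 36.7% in all beside 28.8% of all tested genes. The highest values were those of Zyx, the zyxin gene (1.35, SE 0.06, adjusted p = 3.4e-10), Lims2 (1.31, SE 0.24, adjusted p = 3.1e-04) and Lims1 (1.12, SE 0.05, adjusted p = 7.8e-10), the last 2 of which encode PINCH adaptors of integrin-linked kinase. Among the called genes, the lowest values were those of Plec, which encodes plectin, a linker of hemidesmosomes to keratin filaments (-1.65, SE 0.08, adjusted p = 1.7e-09), Tns1, a tensin gene (-0.91, SE 0.05, adjusted p = 2.7e-09), and Tln2, a talin gene (-0.69, SE 0.06, adjusted p = 2.1e-07). Plec mRNA went from a mean of 430 CPM at time 0 to 441 CPM at 12 hours and 137 CPM at 24 hours.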

How the data were processed

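The authors trimmed paired-end reads of TruSeq mRNA libraries, aligned them with STAR to GRCm38 (GENCODE vM24) and assigned them to genes with featureCounts. The deposited values are these raw counts of protein-coding genes, without normalization, and the strand setting is not given in the sources used here. Libraries were grouped by the hours in their labels. Exon lengths, GC content and positions come from GENCODE M21 of the same assembly, in which 15374 of 15384 genes (99.9%) were found.

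In R 4.3.3, the 6 libraries of each comparison were tested with edgeR 4.0.16 (filterByExpr, TMM factors, quasi-likelihood test) over all genes that passed the filter, with Benjamini-Hochberg adjustment. CPM are TMM scaled over the 9 libraries (SD, n = 3), and the SE is that of the log2 fold change. On simulated data for 24 hours against time 0, 100% of 200 changed genes among 11435 were called, as were 4 unchanged genes. The count levels of the changed genes, the sizes of their changes and the simulated spread between libraries are not given here. How reliable calls are at low counts or near the fold change threshold therefore cannot be read from this simulation.

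The genes and the lists of collagen processing, other matrix genes, the adhesion complex and cell type markers were chosen with earlier results of these data known. Per-library values are given for called genes of at least 50 mean counts and for fixed genes of the basement membrane and its receptors, beside counts for genes of lower level. Of the other lists, the 3 highest and 3 lowest called genes at 24 hours and all called at 12 hours are named, with Fn1, Dag1 and the Ppib value between 12 and 24 hours added after their values were seen.

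Alternatives were DESeq2 1.42.0, limma-voom (limma 3.58.1), RLE and upper-quartile factors, total counts, length and GC offsets (loess, span 0.3), other filters, a joint fit of the 9 libraries, a replicate block, the adjusted p alone, glmTreat and leaving out each library. A few genes of these lists are not reported here by name, although the counts include them.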

Additional observations from a re-analysis of the deposited data

Results flagged for a closer look

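Itgav, the integrin alpha subunit that pairs with several beta subunits, stood out because its 2 steps over time went in opposite directions, each past the adjusted p of edgeR's quasi-likelihood test. The log2 fold change was 0.24 from time 0 to 12 hours (SE 0.04, adjusted p = 9.2e-04) and -0.17 from 12 to 24 hours (SE 0.04, adjusted p = 0.0014), and neither step reached 1.5-fold. The 12 hour libraries are in both steps, so a high or low value there moves the steps in opposite directions, and the difference between the steps was not tested by itself.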

How the results depend on the processing

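The numbers of called collagens, laminins and integrins stayed within 1.5 times of the values given under DESeq2, limma-voom, other factors, total counts, length and GC offsets, other filters and the joint fit. With the adjusted p alone they were 7 at 12 hours, 25 at 24 hours against time 0 and 26 between 12 and 24 hours, and with glmTreat they were 0 at 12 hours and 6 between 12 and 24 hours. Leaving out a library gave 1 to 2 calls at 12 hours (2 without time 0 replicate 2 or ASPN 12 hour replicate 1), 15 to 16 at 24 hours against time 0 and 11 to 13 between 12 and 24 hours. With the adjusted p alone, collagen processing had 5, 14 and 17 calls in these comparisons, matrix partners and receptors 5 at 12 hours and 14 between 12 and 24 hours, and the adhesion complex 13, 19 and 23. With glmTreat, collagen processing had 2 calls at 24 hours against time 0 and 0 between 12 and 24 hours, matrix partners 5 and 4, and the adhesion complex 6 at 24 hours against time 0. Between 12 and 24 hours, the 1 call in collagen processing became 4 with total counts, 3 with the offsets, 2 without a filter on low counts and 0 with at least 10 counts in every library, and it ranged from 0 to 1 when a library was left out (0 without ASPN 24 hour replicate 2), while the adhesion complex had 11 with total counts.

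Every direction that turned was that of a value that was not called. When a library was left out, the values at 12 hours ranged from -0.22 (without time 0 replicate 1) to 0.82 for Col11a2, from -0.23 to 0.45 for Col18a1, from -0.11 to 0.62 for Col20a1, from -0.08 to 0.39 for Itgb4, from -0.03 to 0.21 for Lamb3 and from -0.01 to 0.04 for Lamc1; leaving out time 0 replicate 3 turned each of these but Col11a2. Col20a1 was also -0.07 and Col18a1 0.05 without ASPN 12 hour replicate 3. At 24 hours against time 0, Col11a2 ranged from -0.97 to 0.08 (without time 0 replicate 2). Between 12 and 24 hours, Itgb8 ranged from -0.16 (without ASPN 24 hour replicate 3) to 0.57, Lamb1 from -0.01 (without ASPN 12 hour replicate 2) to 0.19, and Itgb1 was -0.01 without ASPN 24 hour replicate 2. In other fits, Col18a1 was 0.05 with limma-voom and Lamc1 -0.01 with total counts at 12 hours, Itgav was -0.17 with total counts and Itgb1 0.02 with upper-quartile factors at 24 hours against time 0, and between 12 and 24 hours Itgb1 was -0.21 with total counts, -0.04 with the offsets and -0.01 in the joint fit, and Lamb1 was -0.15 with total counts. The cause was not tested.

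Same-numbered libraries did not deviate together (mean correlation over all tested genes of -0.01, -0.06 and 0.03). Whether they were handled together cannot be read from these correlations. With the replicate number as a block, 1, 15 and 15 of the collagens, laminins and integrins were called in the 3 comparisons. Col18a1 was 0.01 at 12 hours with the block and 0.01 with the block and offsets. With the block and offsets, Col11a2 was 0.01 at 24 hours against time 0, Itgb1 was -0.04 between 12 and 24 hours and collagen processing had 3 calls between 12 and 24 hours.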
